A study of Sus scrofa with 6 samples.

Results

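Molecular chaperones bind newly made or damaged proteins and help them reach their folded state. In the cytosol, HSP70 proteins and their J protein partners pass clients to HSP90 and to the ring-shaped chaperonin TRiC, while small heat shock proteins hold unfolded proteins. The endoplasmic reticulum (ER) has its own HSP70 and HSP90, lectin chaperones that bind sugar chains, and disulfide isomerases, and mitochondria have an HSP70 and the HSP60 and HSP10 chaperonin pair. The genes described here are 57 of the 6765 genes named on a porcine expression array. They were taken by symbol from the platform's probe-to-gene table, from probe sets with exactly 1 symbol. Symbols starting with HSPA, HSPB, HSPD, HSPE, HSPH, HSP90, DNAJ or PDIA were taken, as were those starting with CCT followed by a digit, and TCP1, CALR, CANX and HYOU1. P4HB and PPIB, also on the list, have no probe set with that symbol in the table used here and were not analysed here. By known location, 34 of the 57 act in the cytosol or nucleus, 14 in the ER, 6 in mitochondria and 3 elsewhere or in ways not assigned.

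The arrays compared OBGF400, labelled as neuroblasts of the pig olfactory bulb, with the pig kidney line PK15, labelled as non-neuronal and epithelial, which served as a somatic background. Each line had 3 arrays, each hybridised with a pool of RNA from several untreated cultures, 9 cultures per line in all. Both media held 10% bovine calf serum. OBGF400 cells grew in a DMEM/F12 type medium and PK15 cells in minimum essential medium with amphotericin B, so medium and line cannot be told apart. A replicate is a pool of 1 line, so a p-value measures the spread between pools and not between animals or lines.

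Values are the log2 signals of the deposited table, and every difference is OBGF400 minus PK15 on that scale. A gene is called when limma gives an adjusted p under 0.05 over all 6765 genes. Over all 23999 tested probe sets the correlation across probe sets was 0.997 to 0.998 among OBGF400 arrays, 0.996 among PK15 arrays and 0.860 to 0.865 between lines. The table has a lower limit of 2.13, called the floor. Of the neural markers, NCAM1 (8.87 against 2.68 in PK15), MAP2 and UCHL1 were higher in OBGF400, STMN1 was lower (10.27 against 11.85 in PK15), and the glial gene GFAP was at 2.64 in OBGF400 and 7.74 in PK15. S100B, also glial, was at 2.51 in OBGF400 and at the floor in PK15, and its difference of 0.31 was not called. DCX, TUBB3, NES and the mesenchymal gene COL1A1 have no named probe set in the table used here. The mesenchymal genes PDGFRB, CDH11 and COL1A2 were at 12.82 to 13.75 in OBGF400 and at 2.15 to 3.10 in PK15. VIM, also mesenchymal, was bright in both lines, at 15.14 in OBGF400 and 15.04 in PK15. The epithelial genes KRT8, KRT18, CDH1 and EPCAM were at 2.18 to 2.83 in OBGF400 and at 12.45 to 14.77 in PK15. The leukocyte gene PTPRC was at the floor in both lines, whereas AIF1, LAPTM5 and SPI1 were at 2.15, 2.18 and 2.47 in OBGF400 and at 10.72, 10.94 and 6.48 in PK15. The part of these differences in cell character in the chaperone results was not tested. In pooled RNA, fewer cells of a type and less RNA per cell cannot be told apart.

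Spiked controls did not settle a common scale. Hybridization controls were lower in OBGF400 by -0.82 and the dap and thr poly-A controls were higher by 0.86, while the lys and phe poly-A controls differed by -0.14. Scaling on the first moved the median difference of all genes to 0.82, and scaling on dap and thr moved it to -0.87. As deposited it was -0.0018. Differences smaller than these shifts are therefore given relative to the other genes on the arrays, and their sign depends on the scale chosen.

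The chaperone genes were split between directions. Of the 57, 17 were higher in OBGF400, 23 were lower and 17 were not called, with a median difference of 0.00 and a range of -6.79 to 5.49. The called share was 70.2%, where 60.8% of all genes were called. Among genes with a mean above the median, 37 of 47 chaperone genes (78.7%) and 84.0% of all such genes were called. Only 16 chaperone genes, 8 higher and 8 lower, were both called and at least 2-fold different, a share of 28.1% beside 35.7% of all genes. The signals of the lines were fully separate for 43 of the 57, beside 66.9% of all genes. OBGF400 lay above in 18 of them and below in 25, beside 26.8% and 40.1% of all genes. These shares lie near the background and are no result about chaperones.

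A smaller set held its call and sign under both control scalings and under every other refit that included the gene. It had 12 members, 21.1% of the 57, beside 29.8% of all genes under both control scalings. The 5 higher members were HSPB6, DNAJB4, DNAJC14, HSPA12A and DNAJC24. The 7 lower members were HSPB8, CALR, DNAJC5, DNAJC3, HSPB1, DNAJC19 and HSPBP1. They lie in every compartment described. HSPB8, HSPB6 and HSPA12A were too dim to enter the refit with only genes above the median.

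**Figure D1:**
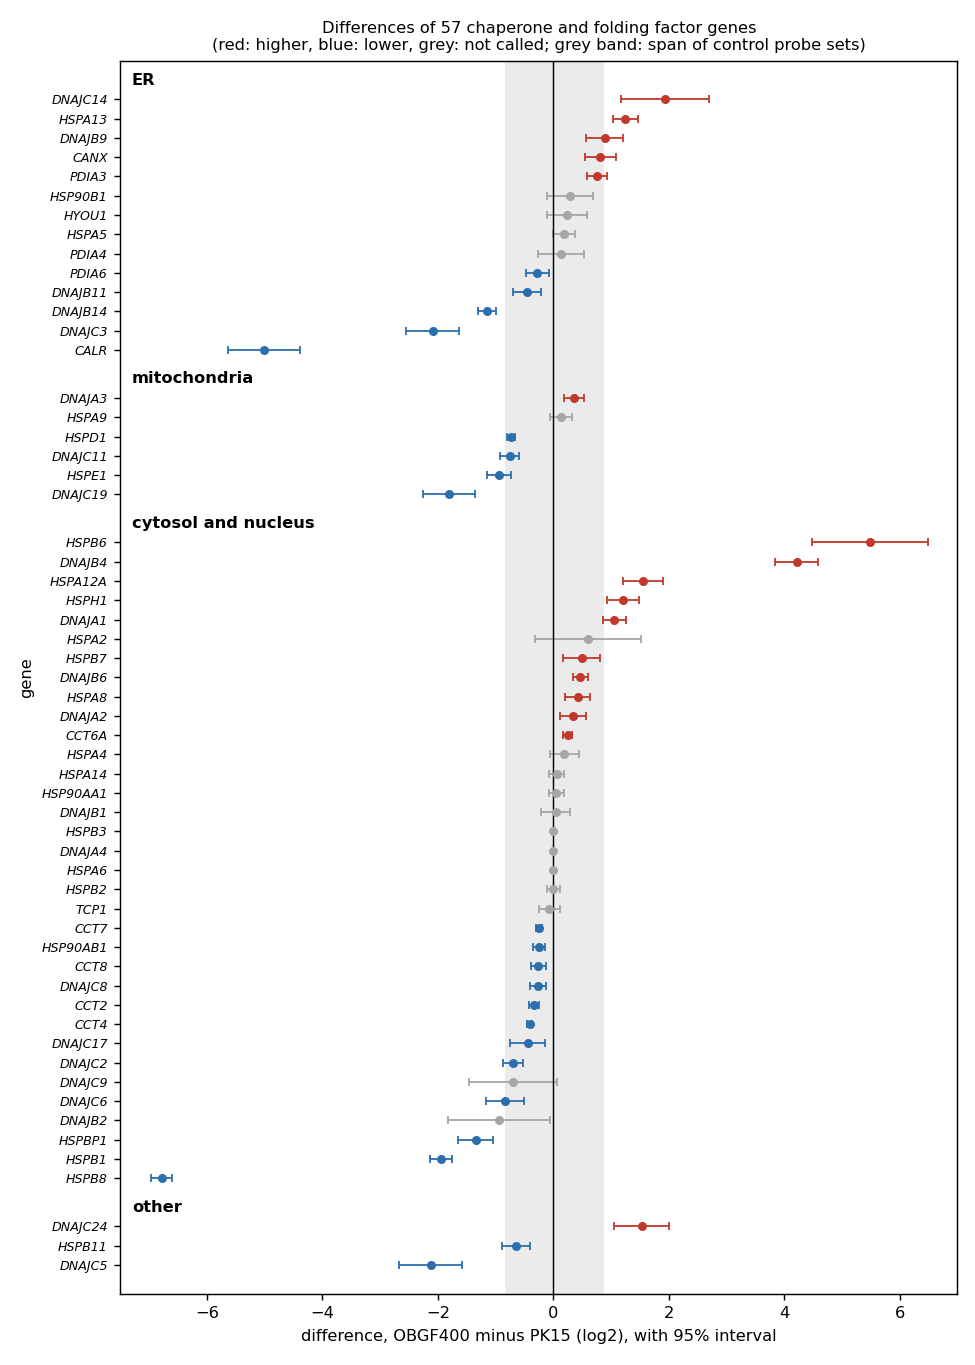
Difference of each of the 57 genes (points, OBGF400 minus PK15 in log2 units, with 95% intervals from limma) by compartment. The grey band runs from the mean difference of the hybridization controls (-0.82) to that of the dap and thr poly-A controls (0.86). HSPB8 (-6.79), CALR (-5.02), DNAJB4 (4.22) and HSPB6 (5.49) lie farthest from it, and most other points lie inside or close to it.

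CALR encodes calreticulin, the soluble lectin chaperone and calcium store protein of the ER lumen. Its signal was 6.51, 6.51 and 6.95 in OBGF400, against 11.48, 11.47 and 12.07 in PK15. All OBGF400 arrays lay far below all PK15 arrays and well above the floor, and the first and second OBGF400 arrays share 1 identical value. The difference was -5.02 ± 0.23 (SE, n = 3 each; adjusted p = 8.0e-05), a 32.5-fold lower signal, and it ranged from -5.89 to -4.20 over all refits. CALR has 1 named probe set, so no further probe set bears on this value. Among the 14 ER genes it had the largest difference.

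CANX, calnexin, is the membrane-anchored lectin chaperone that works beside calreticulin. By the brightest of its 6 probe sets its signal was 12.82, 12.98 and 12.96 in OBGF400, against 12.07, 11.97 and 12.29 in PK15, a difference of 0.81 ± 0.10 (SE, n = 3 each; adjusted p = 0.0020). Its probe sets disagree. A further pair of dimmer ones was called lower, by -1.01 and -1.05, and the mean over its probe sets gave -0.17 (adjusted p = 0.072), so no direction is given for CANX. PDIA3, the disulfide isomerase that calreticulin and calnexin recruit, averaged 13.56 ± 0.11 in OBGF400, against 12.80 ± 0.05 in PK15 (SD, n = 3 each), higher by 0.76 (adjusted p = 5.5e-04). The second PDIA3 probe set was higher by 1.73 and the third was not called. Scaling on the poly-A controls turned the PDIA3 difference to -0.11.

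By their brightest probe sets, no difference was called for the ER HSP70 and HSP90 machinery of HSPA5, HSP90B1 and HYOU1. HSPA5, the luminal HSP70 known as BiP, was at 14.58, 14.74 and 14.68 in OBGF400, against 14.49, 14.37 and 14.57 in PK15. The arrays did not overlap, by a narrow margin, and the difference of 0.19 was not called (95% interval 0.0012 to 0.37, adjusted p = 0.078), although it was called after quantile normalization (0.21, adjusted p = 0.038). HSP90B1, the luminal HSP90 known as GRP94, was at 13.44, 13.75 and 13.57 in OBGF400, against 13.07, 13.31 and 13.52 in PK15. These arrays overlapped, and the difference was 0.28 (95% interval -0.12 to 0.68, adjusted p = 0.18). Its dimmer probe set was called higher by 0.85, and the mean of both gave 0.57 (adjusted p = 0.0086). HYOU1, a large HSP70 relative that recharges BiP, differed by 0.23 and was not called (95% interval -0.11 to 0.58). The isomerase PDIA4 differed by 0.13 (95% interval -0.27 to 0.52), while its second probe set was higher by 1.04, and PDIA6 was lower by -0.28 (adjusted p = 0.032). The PDIA6 call was lost without OBGF400 replicate 3 (-0.28) or PK15 replicate 1 (-0.26), 2 (-0.30) or 3 (-0.26).

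HSPA13, a microsomal HSP70 relative, was higher in OBGF400. Its signal was 12.10, 12.32 and 12.12 in OBGF400, against 10.99, 10.83 and 10.97 in PK15. The groups did not overlap, the difference was 1.25 ± 0.08 (SE; adjusted p = 2.3e-04), and the second probe set was higher by 2.45. Poly-A control scaling left a difference of 0.38 that was not called.

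Of the 5 J proteins of the ER, which bring clients to BiP or sit in the ER membrane, 2 were higher and 3 lower. The shares of all genes were 23.9% higher and 36.8% lower. DNAJC3, a luminal cofactor of BiP also known as P58IPK, was at 6.62, 7.23 and 6.90 in OBGF400, against 9.01, 8.91 and 9.09 in PK15. Every OBGF400 array was lower, by -2.09 ± 0.17 on average (SE; adjusted p = 5.0e-04), whereas the dimmer of its 2 probe sets was not called (0.04). The mean of both gave -1.02 (adjusted p = 0.0014). DNAJC14, an ER membrane J protein, was at 9.27, 9.00 and 9.34 in OBGF400, against 7.34, 6.74 and 7.72 in PK15. The 3 PK15 arrays are spread widely, but all lie below OBGF400, and the differences of its 2 probe sets were 1.94 (adjusted p = 0.0037) and 1.64.

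DNAJB9, a BiP cofactor that acts in ER-associated degradation, was at 11.06, 11.35 and 11.27 in OBGF400, against 10.53, 10.24 and 10.24 in PK15, higher by 0.89 (adjusted p = 0.0027). Of its 3 probe sets, a pair was called higher. With poly-A control scaling the difference was 0.03 and not called. DNAJB14, an ER membrane J protein whose J domain faces the cytosol, was at 8.71, 8.87 and 8.88 in OBGF400, against 9.99, 10.01 and 9.92 in PK15, lower by -1.15 (adjusted p = 1.1e-04). Its call was lost with hybridization control scaling (-0.33) and for the mean of its 2 probe sets (-0.34). DNAJB11, a soluble BiP cofactor, was lower by -0.46 (adjusted p = 0.011).

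**Figure D2:**
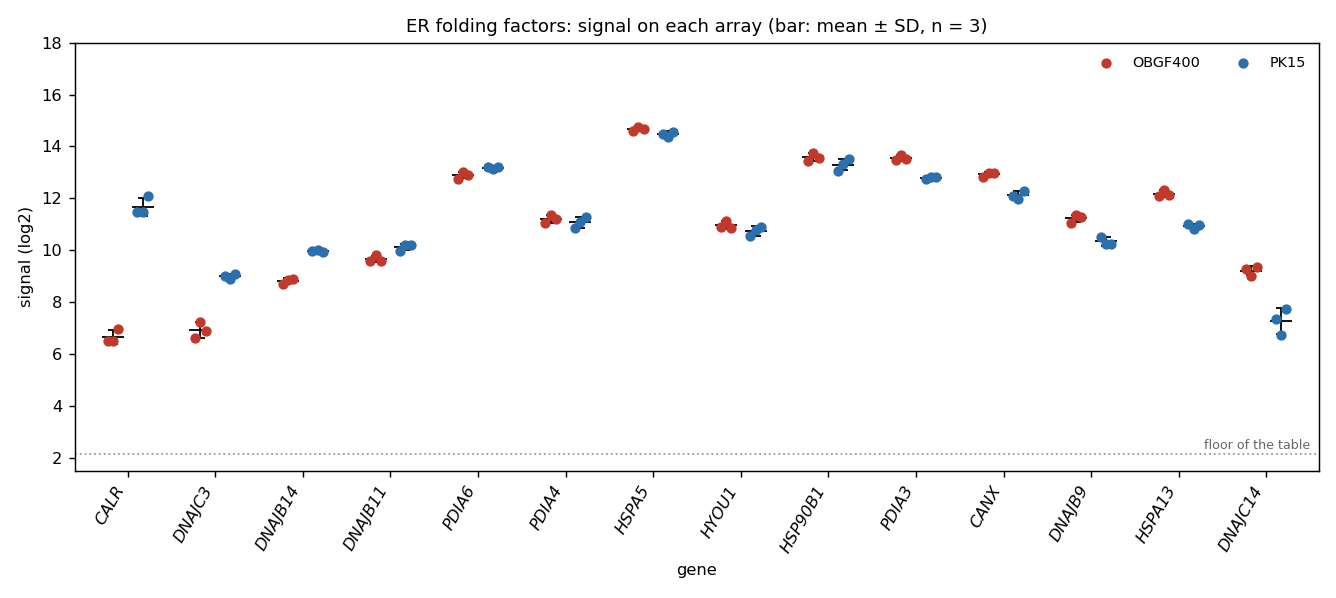
Log2 signal of the 14 ER genes on each array (points), with the mean and SD of 3 arrays per line and the floor of the table as a dotted line. CALR is at 6.51 to 6.95 in OBGF400 and 11.47 to 12.07 in PK15. By their brightest probe sets, HSPA5, HSP90B1, HYOU1 and PDIA4 differ by under 0.3.

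Among the ER genes as a whole, 5 were higher, 5 lower and 4 not called of 14, with a median difference of 0.21, which was 0.23 without CALR. The shares of all genes higher and lower were 23.9% and 36.8%. In the mitochondria, 1 gene was higher, 4 were lower and 1 was not called of 6, with a median of -0.75. In the cytosol and nucleus 10 were higher, 12 lower and 12 not called of 34, with a median of 0.00, and 3 of the 34 were at the floor in both lines. The difference between compartments was not tested, and with 6 genes the mitochondrial median rests on few values. Scaling moves all compartments by the same amount, so it leaves the mitochondrial median below the ER median.

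The mitochondrial chaperonin genes were lower in OBGF400. HSPD1, the HSP60 ring, was at 13.14, 13.15 and 13.14 in OBGF400, against 13.91, 13.83 and 13.89 in PK15, lower by -0.73 ± 0.02 (SE; adjusted p = 2.9e-05). HSPE1, its HSP10 lid, was at 13.78, 13.60 and 13.66 in OBGF400, against 14.75, 14.52 and 14.59 in PK15, lower by -0.94 ± 0.08 (SE; adjusted p = 5.1e-04). The lines did not overlap for either gene. With hybridization control scaling neither was called, at 0.09 for HSPD1 and -0.12 for HSPE1.

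HSPA9, the mitochondrial HSP70 called mortalin, was not called by its brightest probe set. It was at 13.09, 13.17 and 13.15 in OBGF400, against 12.87, 13.09 and 13.05 in PK15, with overlapping arrays and a difference of 0.13 (95% interval -0.06 to 0.32, adjusted p = 0.18). Its other probe sets were higher by 0.27 and 1.22, and the mean of the 3 gave 0.54 (adjusted p = 1.8e-04). DNAJC19, a J protein of the import motor in the inner membrane, was at 8.91, 8.69 and 8.90 in OBGF400, against 10.93, 10.35 and 10.65 in PK15. This was the largest mitochondrial difference, -1.81 ± 0.17 (SE; adjusted p = 7.5e-04). DNAJC11, a J protein of the outer membrane, was at 8.11, 8.12 and 8.05 in OBGF400, against 8.79, 8.97 and 8.78 in PK15, lower by -0.76 (adjusted p = 4.3e-04), a call that hybridization control scaling removed (0.07). DNAJA3, a J protein partner of mortalin, was at 9.66, 9.48 and 9.57 in OBGF400, against 9.24, 9.12 and 9.28 in PK15, higher by 0.36 (adjusted p = 0.0086).

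TRiC, the cytosolic chaperonin that folds actin and tubulin, had 6 named subunit genes of narrow range. CCT2, CCT4, CCT7 and CCT8 were lower by -0.34, -0.41, -0.24 and -0.26, and CCT6A was higher by 0.25. TCP1, the alpha subunit, was at 12.51, 12.56 and 12.56 in OBGF400, against 12.48, 12.67 and 12.71 in PK15, with overlapping arrays and a difference of -0.07 (95% interval -0.25 to 0.11, adjusted p = 0.45). Without PK15 replicate 1 the TCP1 difference was -0.14 and called (adjusted p = 0.011). All 6 were called higher with hybridization control scaling and all 6 lower with poly-A control scaling, so no direction is given for this family. The sign of CCT6A rests on its brightest probe set, as the other pair was not called and the mean of the 3 gave 0.12 (adjusted p = 0.23).

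**Figure D3:**
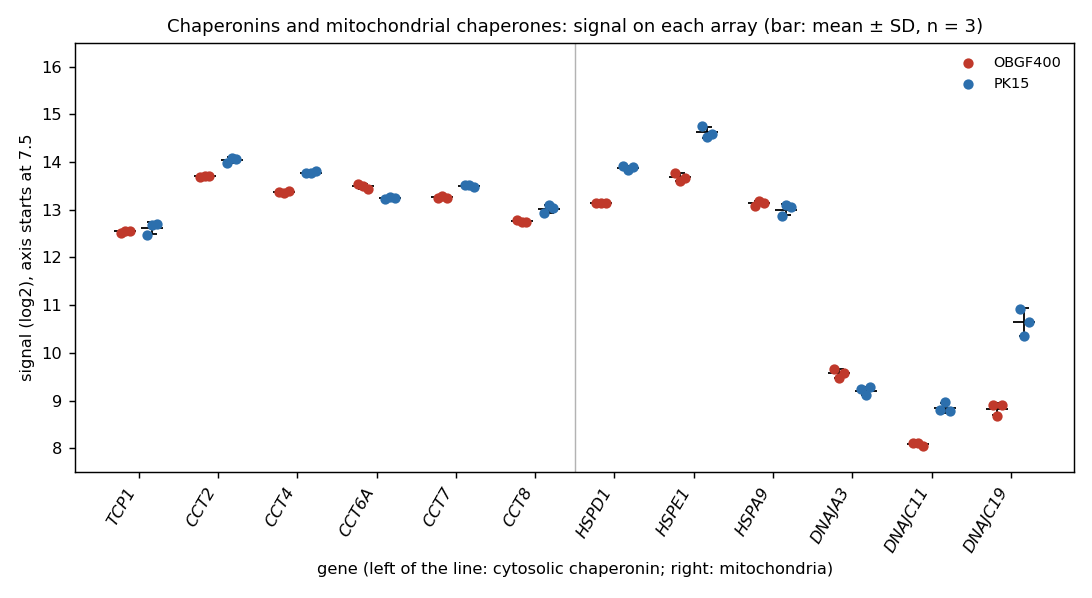
Log2 signal of 6 TRiC subunit genes and 6 mitochondrial genes on each array (points), with mean and SD of 3 arrays per line, on an axis that starts at 7.5. HSPD1 and HSPE1 are lower in OBGF400 on all arrays, by -0.73 and -0.94, whereas HSPA9 overlaps.

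Of the 6 small heat shock proteins, 2 were higher and 2 lower in OBGF400, beside 23.9% and 36.8% of all genes. HSPB8 and HSPB6 differed most, each with low signals in 1 line. HSPB8, which works with the co-chaperone BAG3 in delivering clients to autophagy, was at 2.86, 2.81 and 2.86 in OBGF400, against 9.54, 9.59 and 9.77 in PK15. The OBGF400 signals lay close above the floor and far below every PK15 array. The difference was -6.79 ± 0.07 (SE; adjusted p = 9.6e-07), and with 32 added to the linear values it was -4.40. HSPB1, the widely expressed HSP27, was at 12.35, 12.14 and 12.16 in OBGF400, against 14.09, 14.18 and 14.21 in PK15, lower by -1.94 ± 0.07 (SE; adjusted p = 4.1e-05). HSPB6, known as HSP20 and abundant in smooth muscle, went the other way.

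HSPB6 was at 9.58, 9.02 and 8.95 in OBGF400, against 3.29, 3.40 and 4.39 in PK15. No arrays overlapped. The difference was 5.49 ± 0.38 (SE; adjusted p = 2.7e-04), 3.76 with 32 added, and its second probe set gave 4.69. HSPB7, a small heat shock protein of heart muscle, was higher by 0.49 (adjusted p = 0.022), a call lost on leaving out OBGF400 replicate 1 (0.42) or 3 (0.43) or PK15 replicate 1 (0.52), 2 (0.47) or 3 (0.48). HSPB2, found mainly in muscle, stayed between 2.64 and 2.80 on all arrays and HSPB3 was at the floor in both lines.

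Of the 7 cytosolic HSP70 genes, 3 were higher in OBGF400. Counting also the ER and mitochondrial members, limma called 4 of the 11 HSP70 family genes higher and 0 lower. No difference in the family was below 0 by the brightest probe set of each gene. Dimmer probe sets of HSPA4 and HSPA8 included differences below 0 that were not called. The called share of the family was 36.4%, where 60.8% of all genes were called and 23.9% were higher. This count became 11 higher with hybridization control scaling, and 1 higher and 7 lower with poly-A control scaling. HSPA8, the constitutive HSC70, was at 15.41, 15.30 and 15.23 in OBGF400, against 14.96, 14.75 and 14.96 in PK15, higher by 0.42 (adjusted p = 0.0095). Its 3 dimmer probe sets were not called, and the mean of the 4 gave 0.24 (adjusted p = 0.065). HSPH1, an HSP110 that recharges HSP70, was higher by 1.20 (adjusted p = 5.9e-04), a call lost with poly-A control scaling (0.34).

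HSPA12A, a distant HSP70 relative, was at 5.57, 5.25 and 5.70 in OBGF400, against 3.99, 3.99 and 3.89 in PK15. These are dim signals, and the difference of 1.55 ± 0.13 (SE; adjusted p = 5.1e-04) was 0.71 with 32 added. HSPA4, HSPA14 and HSPA2 differed by 0.19, 0.06 and 0.60 and were not called. HSPA6, a stress-inducible HSP70 in humans, was at the floor on all 6 arrays. HSPBP1, which helps HSP70 exchange its nucleotide, was at 8.30, 8.23 and 7.98 in OBGF400, against 9.40, 9.50 and 9.64 in PK15, lower by -1.34 (adjusted p = 5.2e-04).

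Of the cytosolic HSP90 pair, the constitutive form was lower by a small amount and the inducible form was not called by its brightest probe set. HSP90AA1, the inducible form, was at 13.45, 13.48 and 13.42 in OBGF400, against 13.31, 13.41 and 13.49 in PK15, a difference of 0.05 (95% interval -0.08 to 0.18, adjusted p = 0.47). Its 5 probe sets included 1 called higher (0.63) and a pair called lower (-0.83 and -1.61). The mean of the 5 was called lower (-0.37), so the difference of 0.05 stands for the brightest probe set alone. HSP90AB1, the constitutive form, was at 13.78, 13.77 and 13.81 in OBGF400, against 13.95, 14.08 and 14.08 in PK15, lower by -0.25 ± 0.04 (SE; adjusted p = 0.0058). The HSP90AB1 arrays did not overlap, and hybridization control scaling turned the difference to 0.57.

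**Figure D4:**
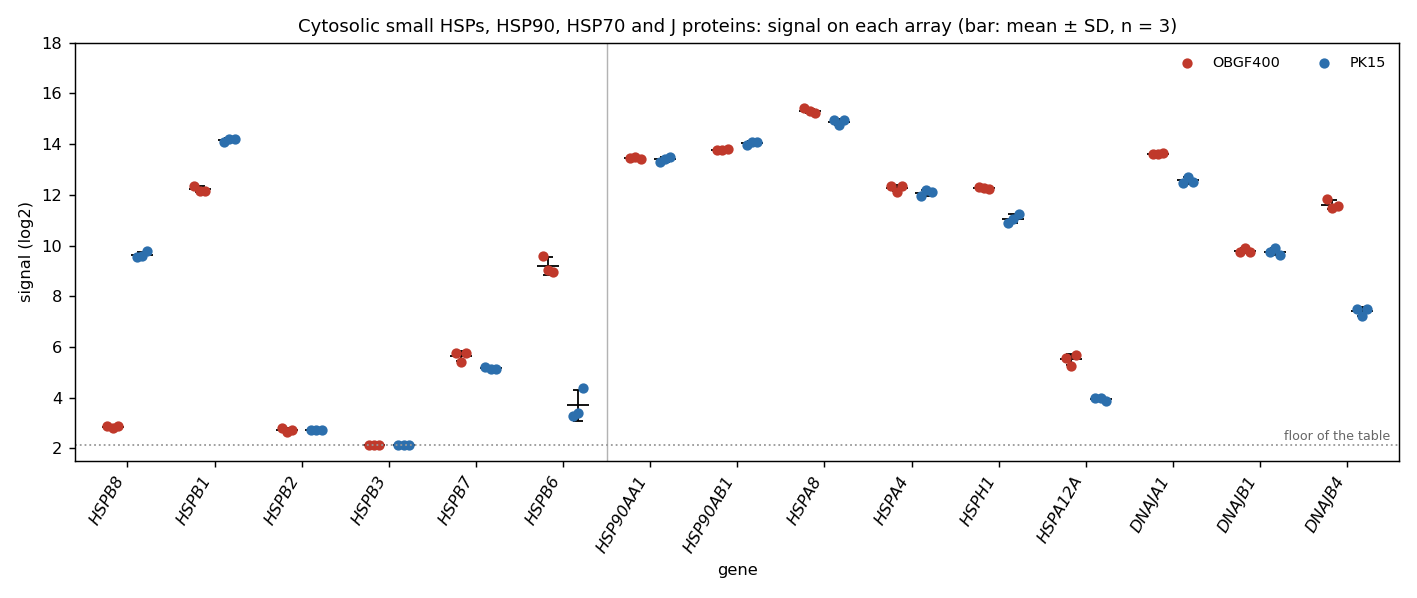
Log2 signal of the 6 small heat shock protein genes and of 9 HSP90, HSP70 and J protein genes on each array (points), with mean and SD of 3 arrays per line and the floor as a dotted line. HSPB8 and HSPB1 are lower and HSPB6 and DNAJB4 higher in OBGF400, while HSP90AA1 and DNAJB1 overlap.

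Of 12 cytosolic and nuclear J proteins, 4 were higher, 4 lower and 4 not called, where 23.9% of all genes were higher and 36.8% lower. Over all 22 J proteins the counts were 8 higher and 10 lower, 12 and 3 with hybridization control scaling, and 3 and 16 with poly-A control scaling. DNAJB4, a heat-inducible partner of HSP70, was at 11.83, 11.47 and 11.56 in OBGF400, against 7.48, 7.21 and 7.51 in PK15. The groups lay far apart, and the difference was 4.22 ± 0.14 (SE; adjusted p = 2.9e-05), 3.35 to 5.04 over all refits. Its close relative DNAJB1, the main J protein of the heat shock response, overlapped between the lines and differed by 0.04 (95% interval -0.21 to 0.29). Each of these genes is read from 1 probe set, and the difference between them was not tested.

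DNAJA1, a general J protein partner of HSC70, was higher by 1.06 (adjusted p = 2.8e-04), but its dimmer probe set was called lower (-0.31). Poly-A control scaling left 0.19 for DNAJA1, not called. DNAJA2, a further partner of HSC70, was higher by 0.34, and DNAJB6, a suppressor of protein aggregation, by 0.46. The DNAJA2 call was lost after median centring (0.26) or without OBGF400 replicate 3 (0.34) or PK15 replicate 1 (0.31) or 2 (0.35). DNAJC2, which sits at the ribosome, was lower by -0.70, DNAJC6, the clathrin-uncoating auxilin, by -0.84 (-0.017 and not called with hybridization control scaling), and DNAJC8 and DNAJC17, both nuclear, by -0.27 and -0.44. The DNAJC17 call was lost without OBGF400 replicate 1 (-0.42) or 3 (-0.41). DNAJB2, a J protein enriched in neurons, and DNAJC9, a histone chaperone, differed by -0.94 and -0.70 and were not called. DNAJB2 was called without PK15 replicate 1 (-1.25) and with array weights (-1.04). Both were called with only genes above the 25th percentile, after median centring (-1.02 and -0.78) and with poly-A control scaling (-1.81 and -1.57). DNAJC9 was also called with only genes above the median, a refit that DNAJB2 was too dim to enter. DNAJA4 was at the floor in both lines.

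The 3 genes outside these compartments were all called, where 60.8% of all genes were called. DNAJC5, the cysteine string protein of secretory and synaptic vesicles, was lower in OBGF400. Its mean was 6.86 ± 0.27 there, against 8.99 ± 0.26 in PK15 (SD, n = 3 each), which gives -2.13. DNAJC24, which acts in diphthamide synthesis, was higher by 1.53, and HSPB11, a component of intraflagellar transport, was lower by -0.65. The names of DNAJC24 and HSPB11 place them in chaperone families whose folding role they are not known for.

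Agreement between probe sets could be read for 22 of the 57 genes. At least 2 probe sets were called in 1 direction for 7 of them, namely HSPB6, HSPA13, DNAJC14, PDIA3, DNAJB9, DNAJB6 and HSPA9. Called probe sets of opposite sign were found for 3, which are CANX, HSP90AA1 and DNAJA1, and 10 genes had exactly 1 called probe set. The remaining pair, HSPA4 and DNAJA4, had none.

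**Figure D5:**
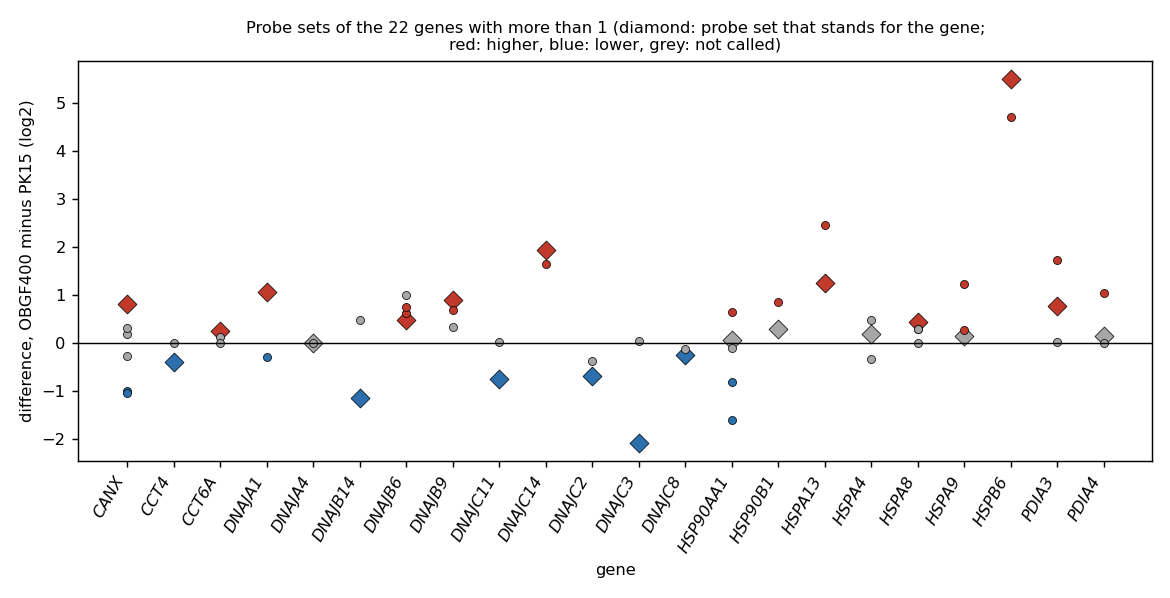
Difference (OBGF400 minus PK15, log2) of every probe set of the 22 genes with more than 1, with a diamond for the probe set of highest mean, which stands for the gene. HSPB6 has 2 high probe sets (5.49 and 4.69), while those of CANX lie between -1.05 and 0.81 and those of HSP90AA1 between -1.61 and 0.63.

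Further genes of the folding pathways were read from lists that are not complete. Of all 6765 genes, 23.9% were higher and 36.8% lower, and the scalings move all genes as well, to 4487 higher and 1259 lower with hybridization control scaling and to 763 higher and 5252 lower with poly-A control scaling. Of 6 measured collagen folding genes, 6 were higher in OBGF400, with a median of 1.72. They include SERPINH1, the collagen chaperone HSP47 (12.86 ± 0.11 in OBGF400, against 10.39 ± 0.14 in PK15, SD, n = 3 each, higher by 2.48), and the lysyl hydroxylase PLOD1 (2.42, and 3.81 as the mean of its probe sets). All 6 stayed higher with hybridization control scaling, while 4 were higher and 1 lower on the poly-A scale. Of 27 ER folding and quality control genes, 17 were higher and 6 lower. Their median was 0.65. The counts became 21 higher and 1 lower with hybridization control scaling, and 3 higher and 12 lower with poly-A control scaling. The ER prolyl isomerase FKBP7 was higher by 4.51, with 1 identical value of 5.55 on the PK15 arrays, and FAF2, a factor of ER-associated degradation, by 2.45. DERL1, a channel component of that pathway, was lower by -1.68 and EDEM2, a mannosidase of glycoprotein degradation, by -1.05, and the EDEM2 call was lost with hybridization control scaling (-0.22).

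The ER stress response list had 5 higher, 3 lower and 3 not called of 11 and a median of 0.18. Its counts were 9 higher and 1 lower with hybridization control scaling, and 1 higher and 8 lower with poly-A control scaling. SDF2L1, a stress-induced partner of the ER J proteins, averaged 5.78 ± 0.49 in OBGF400, against 9.47 ± 0.33 in PK15 (SD, n = 3 each), lower by -3.69. CRELD2, also stress-induced, was lower by -0.84, a call lost without OBGF400 replicate 3 (-0.83) or PK15 replicate 3 (-0.72). The selenoprotein SELENOS was higher by 1.77 and the transcription factor CREB3L2 by 1.10 (0.59 with 32 added). Hybridization control scaling removed the CRELD2 call and poly-A control scaling that of CREB3L2 (0.23).

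In the cytosol, 7 of 13 HSP70 and HSP90 co-chaperones were lower and 4 higher. Their median was -0.37. Hybridization control scaling gave 7 higher and 5 lower (median 0.45). On the poly-A scale 0 were higher and 11 lower. The HSP90 partners FKBP4 and PTGES3 were lower by -1.51 and -1.42 (-4.44 for PTGES3 as the mean of its probe sets), and the HSPB8 partner BAG3 (0.97) and the myosin chaperone UNC45A (0.86) were higher. Neither BAG3 nor UNC45A was called with poly-A control scaling. Of 6 prefoldin and related genes, which hand clients to TRiC, 4 were lower, with VBP1 at -1.25 and PFDN4 at -1.21, and PDRG1 was higher (0.50). Hybridization control scaling gave 3 higher and 2 lower for this list (median 0.0439). On the poly-A scale 0 were higher and 5 lower. HSF1, the main heat shock transcription factor, averaged 5.86 ± 0.05 in OBGF400, against 8.22 ± 0.18 in PK15 (SD, n = 3 each), lower by -2.35. HSF2 was higher by 0.67, and HSBP1, a binding partner of HSF1, was lower by -0.46 but higher by 0.36 as the mean of its probe sets. Control scaling turned the signs of HSF2, HSBP1 and PDRG1.

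Of 10 mitochondrial proteostasis genes, 6 were lower and 1 higher, while 3 were not called. Their median was -0.85, beside a median of -0.75 for the 6 mitochondrial chaperone genes. PPIF, the matrix prolyl isomerase cyclophilin D, averaged 4.77 ± 0.29 in OBGF400, against 11.16 ± 0.18 in PK15 (SD, n = 3 each), which gives -6.39, or -5.29 with 32 added. BCS1L, an assembly chaperone of complex III, was lower by -2.17, and the protease YME1L1 was higher by 0.90, a call that poly-A control scaling removed (0.03). Hybridization control scaling changed this to 4 higher and 3 lower and set the median to -0.03. On the poly-A scale 0 were higher and 9 lower.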

How the data were processed

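RNA of 2 pig cell lines was measured on 6 Affymetrix porcine arrays, 3 per line, grouped by the sample titles. The values the authors deposited are log2 signals, 1 for each probe set on each array. Per the submitters' processing notes affy was used. How signals were background-corrected, summarised and normalized is unknown here. The 6 arrays share a floor of 2.13, and no detection calls were used. The number of arrays limits the precision.

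Of 24123 probe sets, 124 controls were left out. Of 23999 tested, 10069 had 1 symbol in the platform annotation, 198 several and 13732 none. Each of 6765 genes was read from its brightest probe set, by the mean of all 6 arrays. The 57 chaperone genes had 96 probe sets, and 56 of the genes matched the Sscrofa11.1 RefSeq table by Entrez number.

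The comparison used limma 3.58.1 in R 4.3.3 (lmFit and eBayes, a two-sided test). Benjamini-Hochberg adjustment ran over all genes, and tables were made in Python 3.11.15. The fit was tested on simulated data. With 3 arrays per line an exact permutation p cannot go below 0.1. The labels do not state that replicate numbers pair the pools, so no block was used in the comparison. Same-numbered arrays did not deviate together (correlations across genes of 0.033, -0.0075 and 0.013). The genes and lists were chosen with earlier results of these data known, so they get no test of their own and support nothing independently. Named individually with array values were CALR, the called genes of each compartment that rose or fell most (up to 3 each way), and a fixed set of core chaperones. From each other list the rule took up to 2 called genes each way. Alternatives were quantile normalization, median centring, 2 control scalings, 2 filters on dim genes, trended and robust variance, array weights, 32 added to linear values, the mean of probe sets, each probe set by itself, a threshold of 0.01, a replicate block and leaving out each array.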

Additional observations from a re-analysis of the deposited data

How the results depend on the processing

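The control scalings moved the results most. With hybridization control scaling, 4487 of all genes were higher in OBGF400 and 1259 lower, and 40 chaperone genes were higher and 7 lower (median 0.82), of which 27 and 3 were cytosolic (median 0.82), 10 and 2 of the ER (1.03) and 2 and 1 mitochondrial (0.0775). With poly-A control scaling, 763 of all genes were higher and 5252 lower, and 5 chaperone genes were higher and 43 lower (-0.86), of which 3 and 26 were cytosolic (-0.86), 1 and 9 of the ER (-0.66) and 0 and 6 mitochondrial (-1.61). These shifts follow from the scaling itself, and which scale is right was not tested.

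The sign turned with hybridization control scaling for CCT2 (0.48), CCT4 (0.42), CCT7 (0.58), CCT8 (0.56), DNAJB11 (0.37), DNAJC11 (0.0657), DNAJC17 (0.38), DNAJC2 (0.12), DNAJC8 (0.56), DNAJC9 (0.12), HSP90AB1 (0.57), HSPB11 (0.18), HSPB2 (0.82), HSPD1 (0.0893), PDIA6 (0.55), TCP1 (0.75) and HSBP1 (0.36). It turned with poly-A control scaling for CANX (-0.0526), CCT6A (-0.61), DNAJA2 (-0.52), DNAJA3 (-0.51), DNAJB1 (-0.83), DNAJB6 (-0.40), HSP90AA1 (-0.81), HSP90B1 (-0.58), HSPA14 (-0.81), HSPA2 (-0.26), HSPA4 (-0.68), HSPA5 (-0.68), HSPA8 (-0.44), HSPA9 (-0.73), HSPB7 (-0.37), HYOU1 (-0.63), PDIA3 (-0.11), PDIA4 (-0.74), PDRG1 (-0.36) and HSF2 (-0.20). The mean of probe sets turned CANX (-0.17), HSP90AA1 (-0.37) and HSBP1 (0.36), gave 2 mitochondrial genes higher and set the mitochondrial median to -0.5545. Differences of DNAJB1, HSP90AA1, HSPA14 and HSPB2, which were not called, also changed sign in other refits, where they stayed uncalled. Counting each probe set by itself gave 29 higher and 28 lower. At a threshold of 0.01, 3 ER genes were lower. Median centring set the medians to -0.0795 for all chaperone genes, -0.0795 for cytosolic and -0.82 for mitochondrial ones. The filters on dim genes set the median of the chaperone genes to 0.0394 above the 25th percentile and -0.072 above the median, where the cytosolic median was -0.16. Beyond what the settings do by construction, the cause was not tested.

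Of the 40 calls, 32 held in every refit that included the gene, other than the control scalings. Leaving out each array in turn gave 15 to 17 chaperone genes higher and 21 to 24 lower. Replicate numbers are not stated to pair the pools. With the replicate block 16 were higher and 22 lower, as DNAJA2 and PDIA6 lost their calls. The limits are 1 line per group, 3 pools each, an unstated normalization and a floor that 3 of the 57 genes did not leave.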

Other observations

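Chaperone genes that the symbol rule does not take were read after their values were seen. CRYAB, the small heat shock protein alpha B crystallin, was at 10.08, 9.59 and 9.68 in OBGF400, against 11.47, 11.73 and 11.52 in PK15. It was lower by -1.79 (adjusted p = 6.2e-04). Of the small heat shock proteins taken by the rule, 2 were lower (HSPB1 and HSPB8) and 2 higher (HSPB6 and HSPB7). HSP70.2, the annotation's name for a pig HSP70 gene, averaged 12.73 ± 0.11 in OBGF400, against 12.21 ± 0.34 in PK15 (SD, n = 3 each), and the difference of 0.52 was not called (adjusted p = 0.078).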
